A study of Homo sapiens with 11 samples.

Results

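The genes described here code for 6 regulators of alternative splicing, QKI, MBNL1, MBNL2, DDX5, DDX17 and RBFOX2, named for their link to the exon choice that yields the macroH2A1 isoforms mH2A1.1 and mH2A1.2. They were chosen by name and not by a measured value, though with earlier results of these data known. Of the 6, 5 are among the 23167 identifiers of the count tables. Counts of RBFOX2 are not analysed here, so only ChIP-seq peaks are given for it. RNA-seq was done in MDA-MB-231 cells, a triple-negative breast cancer line from a pleural effusion. The WT group comprised 2 libraries from cells transfected with no siRNA (0 nM), and the KD group 2 libraries from cells given an siRNA against mH2A1.1 (11 nM), all cultured for 3 days after transfection. WT was thus a control without siRNA and not a control with a non-targeting siRNA. ChIP-seq of untreated cells gave 1 peak list for mH2A1.1, from a custom polyclonal antibody, and 1 for total mH2A1. Nothing in the labels ties the libraries to separate cultures, so p-values measure the spread between these libraries, which may be technical.

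MacroH2A1 transcripts carry 1 of a pair of mutually exclusive exons, which code for alternative stretches of the macro domain. The mH2A1.1 form binds NAD metabolites and the mH2A1.2 form does not. Splicing factors such as the QKI, MBNL and RBFOX proteins read short RNA motifs near exons and raise or lower exon inclusion according to where they bind. QKI is a STAR-family RNA-binding protein that favours the mH2A1.1 exon, the muscleblind-like proteins MBNL1 and MBNL2 and the RBFOX proteins act on many tissue-dependent exons, and the DEAD-box RNA helicases DDX5 and DDX17 are known to shift macroH2A1 splicing in breast cancer cells.

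The exon pair lies on the minus strand of chromosome 5 (GRCh38) in MACROH2A1, and both exons are coding. The first exon in the transcript, of 100 bases at chr5:135352946-135353045, belongs to mH2A1.2 and is used by 3 annotated coding transcripts. The second, of 91 bases at chr5:135350823-135350913, belongs to mH2A1.1 and is used by 1. Both are printed because they are the exon choice for which the members are named as a group. Action of the members on this pair was not tested. The sequences are DNA in the direction of the transcript, with exon bases in capitals and 25 intron bases on each side in lower case.
mH2A1.2 exon: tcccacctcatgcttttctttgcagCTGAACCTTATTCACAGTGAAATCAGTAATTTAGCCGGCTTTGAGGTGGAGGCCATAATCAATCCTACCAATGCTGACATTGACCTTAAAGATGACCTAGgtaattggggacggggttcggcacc
mH2A1.1 exon: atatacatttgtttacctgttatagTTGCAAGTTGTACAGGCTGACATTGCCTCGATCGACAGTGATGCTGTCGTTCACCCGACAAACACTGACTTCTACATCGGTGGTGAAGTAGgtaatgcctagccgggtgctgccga

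The introns on both sides of the pair were searched on the transcript strand for ACTAAC or ACTAAT (the letters QKI binds), TGCATG (RBFOX proteins) and TGCTT or CGCTT (MBNL proteins). The intron before the pair, of 7451 bases, held 6 QKI, 4 RBFOX and 16 MBNL matches, 2 of the RBFOX matches overlapping each other. The intron between the exons, of 2032 bases, held 0 QKI, 0 RBFOX and 1 MBNL match. The intron after the pair, of 4765 bases, held 1 QKI, 2 RBFOX and 14 MBNL matches. Per kb, MBNL matches were 2.15, 0.492 and 2.94 in these introns, in that order. No background rate was computed for whole introns, so these counts do not show enrichment. A match describes letters in the reference and does not show that the factor binds there.

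Matches of the RBFOX and MBNL motifs lay close to an exon. An RBFOX match began 34 bases after the mH2A1.1 exon, and TGCATG occurs in the 250 bases after 7.2% of 6954 internal coding exons of chromosome 5. That share is for a single window, and several were searched. No RBFOX match lay in the 250 bases before the mH2A1.1 exon or on either side of the mH2A1.2 exon. In the 250 bases before the mH2A1.2 exon there were 4 MBNL matches, where 41.2% of the chromosome 5 exons hold at least 1. The share of exons with 4 was not counted. The 250 bases after the mH2A1.2 exon and those on either side of the mH2A1.1 exon held no MBNL match. No QKI match lay within 250 bases of either exon, and the nearest was 579 bases before the mH2A1.2 exon, while 9.99% of the exons hold a QKI match in the 250 bases before them and 8.82% in those after. The windows below run with the transcript, with the matches in capitals, and are at chr5:135350573-135350822 for RBFOX, chr5:135353046-135353295 for MBNL and chr5:135353615-135353640 for QKI.
RBFOX match after the mH2A1.1 exon: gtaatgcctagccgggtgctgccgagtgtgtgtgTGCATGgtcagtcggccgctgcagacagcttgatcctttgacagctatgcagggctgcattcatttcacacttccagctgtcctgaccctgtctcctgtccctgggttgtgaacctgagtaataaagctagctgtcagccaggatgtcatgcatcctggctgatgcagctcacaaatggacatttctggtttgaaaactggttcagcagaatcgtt
MBNL matches before the mH2A1.2 exon: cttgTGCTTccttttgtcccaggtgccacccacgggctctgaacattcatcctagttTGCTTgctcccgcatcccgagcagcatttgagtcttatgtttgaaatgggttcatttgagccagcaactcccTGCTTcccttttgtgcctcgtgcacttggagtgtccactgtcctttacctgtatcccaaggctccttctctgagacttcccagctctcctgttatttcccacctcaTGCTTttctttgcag
QKI match before the mH2A1.2 exon: gcattacatgACTAATgggcacgtaa

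**Figure D1:**
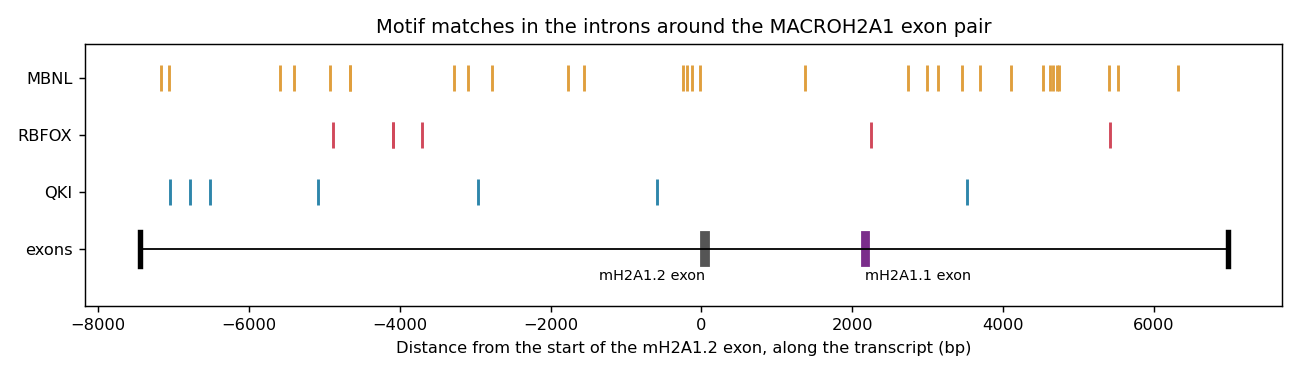
Matches to the QKI, RBFOX and MBNL motifs (ticks) along the introns around the MACROH2A1 exon pair; the x axis is the distance in bases from the start of the mH2A1.2 exon along the transcript, boxes are the paired exons and black bars the neighbouring exons. The 4 MBNL ticks just left of the mH2A1.2 exon and the RBFOX tick just right of the mH2A1.1 exon are the close matches described above.

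Depth differed between the libraries. The WT libraries held 9794674 and 7856892 counts, KD replicate 1 held 5584962 and KD replicate 2 held 2309549. KD replicate 2 held 30 counts on chromosome 21 and 0 on chromosomes 22 and X. DDX17 and RBFOX2 lie on chromosome 22, so DDX17 was compared in 3 libraries, with KD replicate 1 as the only KD library, and the other members in all 4. KD replicate 2 also stood apart in base composition. Genes were split by the GC content of their exons into 5 classes of equal size. In the lowest GC class the median log2 ratio to mean WT was -0.79 in KD replicate 2 and -0.25 in KD replicate 1, and in the highest class it was 0.73 and 0.18. For WT replicate 2 over WT replicate 1 the medians of these classes were -0.11 and 0.09. The cells expressed the mesenchymal markers VIM (mean of 2410 CPM, counts scaled to library size, in WT) and CD44 (1320 CPM), and of 7 luminal markers ESR1 and PGR were at 0 counts in every library and FOXA1 reached 1 count at most. The luminal keratin KRT19 was expressed, at 274 ± 18.9 CPM in WT and 571 ± 121 CPM in KD (SD, n = 2), as were GATA3 (18.4 CPM in WT) and EPCAM (21 CPM), while CDH1 was at 2.41 CPM. KRT19, KRT8 and KRT18 were higher in both KD libraries, with log2 fold changes of 1.06, 1.08 and 0.87 (adjusted p = 0.176, 0.194 and 0.194). VIM was also higher in both, at 0.68 (adjusted p = 0.198). Of the other luminal markers tested, GATA3 was at 0.16, EPCAM at 0.13 and CDH1, at low counts, at -1.28. The exons of KRT19, KRT8, KRT18 and VIM are 60%, 55.9%, 55.7% and 50.3% GC. The part of these marker differences in the members' values was not tested. Of 7 markers of blood, endothelial and muscle cells counted, none exceeded 31 counts in a library. HNRNPL and HNRNPR, splicing factors that nearly all cells use, were also at 0 counts in all 4 libraries, so a gene listed at 0 in these tables is not shown to be silent.

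The siRNA was directed at 1 isoform, whereas the counts sum all transcripts of a gene, so neither the isoform nor the exon choice is resolved in them. MACROH2A1 as a whole stood at 385 and 394 CPM in WT and at 274 and 300 CPM in KD, and the groups did not overlap. Its log2 fold change of -0.44 (SE 0.173) did not pass the test in 4 libraries (adjusted p = 0.205). MACROH2A2 was listed at 0 in all libraries.

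In WT cells DDX5 was the most highly expressed of the 5 counted members per length of exon. It reached 72.5 ± 3.42 RPKM (CPM divided by the exon length in kilobases; SD, n = 2), above DDX17 at 33.3 ± 0.658, MBNL2 at 30.8 ± 2.33, MBNL1 at 28.6 ± 0.887 and QKI at 10.5 ± 0.7. MBNL2 (32.4 and 29.1 RPKM) was above MBNL1 (29.2 and 27.9 RPKM) in each WT library, by a margin that across libraries was within the spread. In KD the order was the other way in each library, with MBNL2 at 21.8 and 16.1 RPKM and MBNL1 at 27.3 and 20.9 RPKM. The order of this pair in WT also depended on the length used. Scaled by the longest coding transcript, MBNL1 (44.2 RPKM) stood above MBNL2 (31.6 RPKM), and the order of the others was kept. The value of DDX17 comes from a fit that includes chromosomes 21, 22 and X, and the others from one without them.

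QKI and MBNL2 were the members with the largest differences between KD and WT, both lower in KD. For QKI, 1811 and 1318 reads were counted in WT and 687 and 228 in KD, in the order of the replicate numbers. Scaled to library size these were 191 and 173 CPM in WT and 130 and 108 CPM in KD. Neither KD library of QKI reached the lower WT library. The log2 fold change was -0.61 (SE 0.188), which is 1.53-fold lower in KD, with an adjusted p = 0.194 over 10963 genes. Calls required more than 1.5-fold change at an adjusted p below 0.1, the limits of the study, and QKI did not pass them. In bulk RNA, fewer cells that express a gene and less of its RNA in each cell cannot be told apart.

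MBNL2, which together with MBNL1 is known for its sequestration by expanded repeats in myotonic dystrophy, had 1602 and 1151 counts in WT and 599 and 177 in KD. These were 169 and 151 CPM in WT and 113 and 83.6 CPM in KD, again with no overlap. The log2 fold change was -0.69 (SE 0.21), 1.61-fold lower in KD, with an adjusted p = 0.194. DESeq2 called MBNL2 (log2 fold change -0.70, adjusted p = 0.0804) and not QKI (-0.62, adjusted p = 0.102).

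MBNL1 differed less and mainly in 1 library. It had 2773 and 2123 counts in WT and 1446 and 441 in KD, or 292 and 279 CPM in WT and 273 and 208 CPM in KD. KD replicate 1 lay just under the lower WT library, and KD replicate 2 well below it. The log2 fold change was -0.24 (SE 0.199, adjusted p = 0.453). An antisense gene, MBNL1-AS1, overlaps MBNL1, and how strand was treated in the counting is not stated beyond default settings.

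DDX5, a helicase and transcription co-regulator, had 6204 and 5306 counts in WT and 3919 and 1347 in KD, or 653 and 698 CPM in WT and 740 and 637 CPM in KD. The KD libraries lay on either side of the WT pair. The log2 fold change was 0.03 (SE 0.18, adjusted p = 0.931). DDX5 overlaps CEP95 on the opposite strand, which limits its counts in the same way. DDX17, the close paralogue of DDX5, had 3335 and 2592 counts in WT and 1601 in KD replicate 1, or 338 and 328 CPM in WT against 291 CPM. The KD library was the lowest of the 3, with a log2 fold change of -0.19 (SE 0.0994, adjusted p = 0.161). That test has no KD replicate and assumes that the KD library varies like the WT pair. KDELR3 overlaps DDX17 on the opposite strand.

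**Figure D2:**
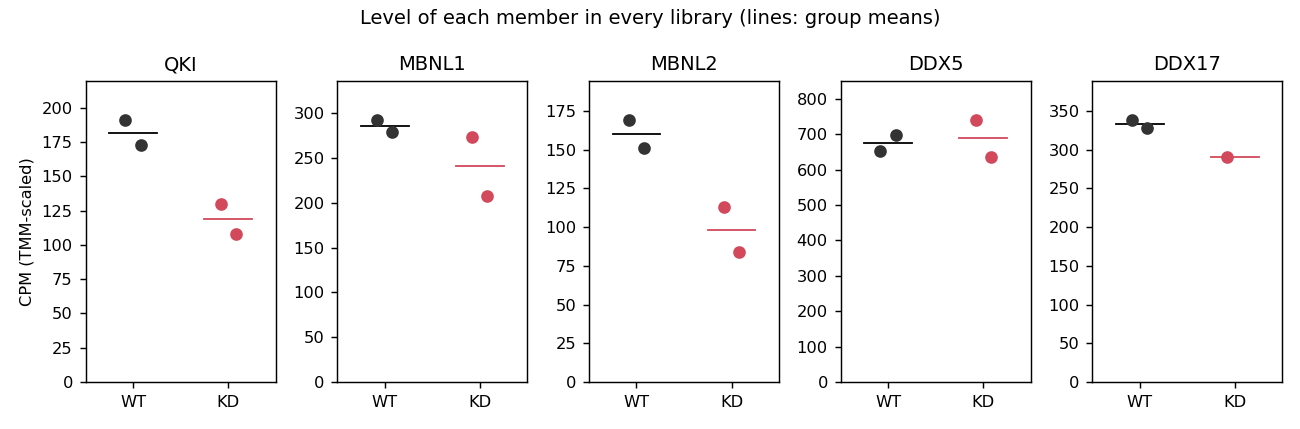
CPM (y axis, from 0) of the 5 counted members in each WT (black) and KD (red) library, with lines at the group means. QKI and MBNL2 were lower in both KD libraries, DDX5 overlapped between the groups, and DDX17 has 1 KD library because KD replicate 2 holds no counts on chromosome 22.

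In the fits above, edgeR called none of the 5 counted members. Over all genes, edgeR called 0 of 10963 in 4 libraries (0%). The same fold limit with p below 0.05 before adjustment gave 1036 higher and 1027 lower genes. At an unadjusted p under 0.05 alone, 2 of 4 members tested in 4 libraries, QKI and MBNL2, were lower, against 11.4% of all genes. None of them passed after adjustment. For 3 of the 4, QKI, MBNL1 and MBNL2, both KD libraries lay below both WT libraries, which was so for 32.4% of all genes. DESeq2 called 11.3% of the genes it gave an adjusted p. Without the filter on low counts edgeR called QKI and MBNL2, and 14.2% of all genes.

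The result for QKI and MBNL2 depended on which libraries entered the test. With both WT libraries and KD replicate 1 alone, in the fit that includes chromosomes 21, 22 and X, the log2 fold change was -0.49 (SE 0.112, adjusted p = 0.000247) for QKI and -0.50 (SE 0.114, adjusted p = 0.000248) for MBNL2. Both passed the p threshold, as did 14.3% of all genes in the direction of lower in KD, but their folds of 1.4 and 1.41 were under the 1.5-fold limit, so neither was among the 7.96% of genes called. With KD replicate 2 as the only KD library, the log2 fold changes were -0.77 (adjusted p = 1.1e-07) for QKI, -0.95 (5.27e-10) for MBNL2 and -0.46 (0.000319) for MBNL1, and QKI and MBNL2 were called. In that fit 41.8% of all genes were called and 29.1% were lower in KD at an adjusted p below 0.1. Both of these 3-library fits take their error from the WT pair, while the KD pair varied more. The chi-square per degree of freedom was 20.8 between the KD libraries and 2.95 between the WT libraries, and the biological coefficient of variation was 0.166 in 4 libraries against 0.0535 with KD replicate 1 alone, so these p-values are too small for a difference between the conditions. The direction of QKI and MBNL2 was the same in each KD library, and their size was larger in the shallower library.

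The exons of the 5 counted members had less GC than the median gene, and the KD libraries were lower for genes of low GC in general. The exons of QKI and MBNL2 are 38.2% and 38% GC, those of MBNL1 40.6%, DDX5 43.4% and DDX17 44.2%, against a median of 47.1% over 10943 genes. QKI and MBNL2 belong to the lowest GC class, which spans 31% to 40.4%. In KD replicate 1 their log2 ratios to mean WT, -0.49 and -0.50, were below the median of that class (-0.25). In KD replicate 2 they were -0.76 and -0.94, beside a median of -0.79. MBNL1, in the next class, had -0.06 and -0.45 beside medians of -0.08 and -0.40. DDX5, in the same class as MBNL1, had 0.13 and -0.09, above both medians.

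Removing each library's trend with GC content and exon length took most of the difference away. The log2 fold change became -0.06 (SE 0.137, adjusted p = 0.798) for QKI and -0.09 (SE 0.123, adjusted p = 0.685) for MBNL2. For MBNL1 it turned to 0.20 (adjusted p = 0.318) and for DDX5 it was 0.32 (adjusted p = 0.186). This correction moved the median of all genes from 0.008 to 0.089. In DESeq2 the same correction gave -0.18 (adjusted p = 0.611) for QKI and -0.19 (adjusted p = 0.566) for MBNL2, with 0.09 for MBNL1 and 0.21 for DDX5. There the median of all genes was -0.01, so the edgeR and DESeq2 values stand beside different medians. MACROH2A1 itself stood at -0.30 (SE 0.147, adjusted p = 0.25) in edgeR and -0.41 (adjusted p = 0.0649) in DESeq2. No member was called after the correction, by which 3.36% of all genes were called in edgeR and 5.5% in DESeq2. The differences of QKI and MBNL2 thus shrank with this correction. The part of base composition in them was not tested.

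**Figure D3:**
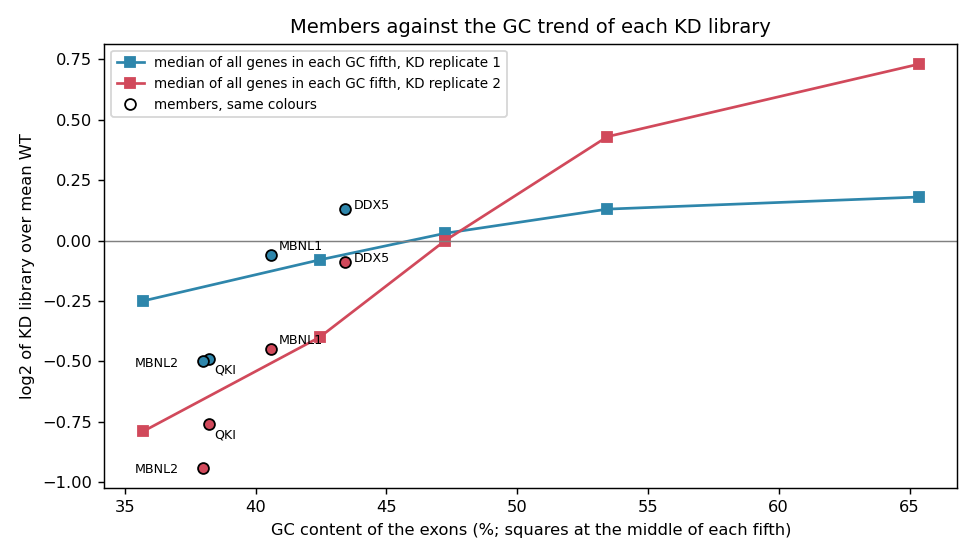
Log2 ratio of each KD library to the mean of WT (y axis) against GC content of the exons in percent (x axis), with squares for the medians of all genes in each GC class and circles for QKI, MBNL1, MBNL2 and DDX5 (blue, KD replicate 1, and red, KD replicate 2). The red line runs from -0.79 to 0.73 and the blue from -0.25 to 0.18. Squares are drawn at the middle of each class, and the circles of QKI and MBNL2 lie under the line of their colour.

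**Figure D4:**
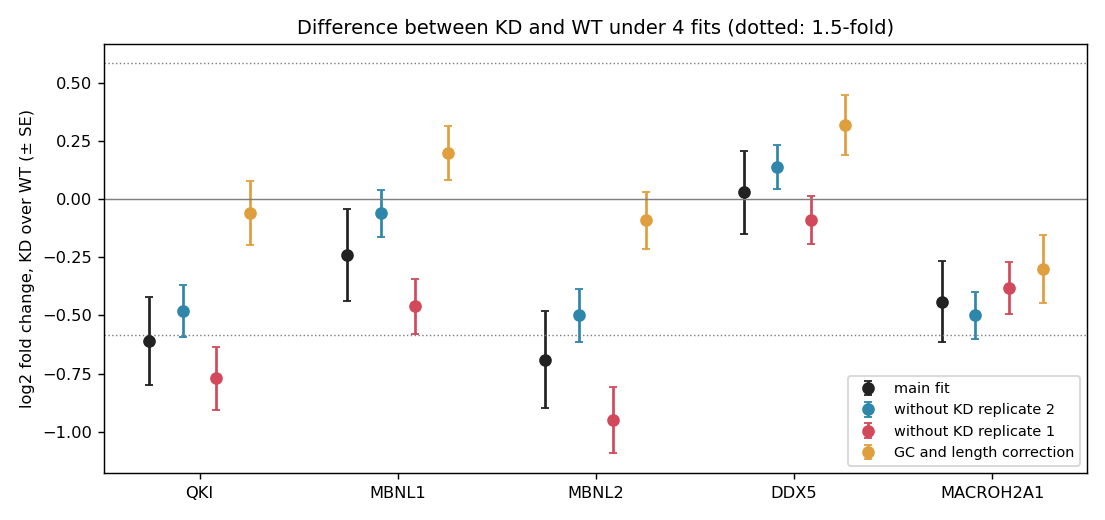
Log2 fold change of KD over WT with its SE (y axis) for 4 members and MACROH2A1 under 4 edgeR fits, with dotted lines at 1.5-fold. QKI and MBNL2 move from about the lower dotted line to near 0 after the correction for GC and length, and MACROH2A1 from -0.44 to -0.30. After that correction the median of all genes was 0.089.

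Of 7 relatives of the members, 4 passed the filter on low counts and none was called. MBNL3, the X-linked muscleblind gene, had 44.4 and 40.1 CPM in WT and 30 CPM in KD replicate 1, with a log2 fold change of -0.50 (adjusted p = 0.0114 in 3 libraries) and a fold of 1.41, under the limit. That test has 1 KD library, and MBNL3 did not pass the p threshold in DESeq2 (-0.50, adjusted p = 0.26) or after the GC and length correction (-0.20, adjusted p = 0.349). KHDRBS1, a STAR-family relative of QKI, had 203 and 198 CPM in WT and 170 and 180 CPM in KD (log2 fold change -0.20, adjusted p = 0.482). KHDRBS3 had -0.43 (adjusted p = 0.303), and -0.04 after the correction. SF1, the branch point binding protein, had 0.03 (adjusted p = 0.92). RBFOX1, RBFOX3 and KHDRBS2 were listed at 0 in all libraries, as were HNRNPL and HNRNPR.

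The members were set beside broader classes of splicing genes. In edgeR with TMM scaling and its filter, the fit used throughout unless another is named, no gene of any class passed both thresholds. The median log2 fold change was -0.24 over the 5 counted members (DDX17 from 3 libraries), beside 0.008 over all genes of the 4-library fit. Of 16 SR and SR-like factors tested, 13 had negative log2 fold changes (median -0.15), where 49.4% of all genes did, and 3 were lower at an unadjusted p under 0.05, where 11.4% of all genes were. SRRM1 (-0.58, adjusted p = 0.194) and SRSF11 (-0.54, adjusted p = 0.194) had the smallest p among the lower ones, and SRSF9 (0.31, adjusted p = 0.437) and SRSF7 (0.23, adjusted p = 0.458) among the higher ones. Of 24 hnRNP factors, 14 were negative (median -0.10), with SYNCRIP at -0.86 (adjusted p = 0.194), PTBP2 at -0.65 (0.198) and PCBP1 at 0.57 (0.2). HNRNPH2, on chromosome X and compared in 3 libraries, was at 0.20 (0.238).

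Among 21 other tissue-dependent regulators the median was -0.10, with TIA1 at -0.74 (adjusted p = 0.194), MATR3 at -0.88 (0.205), ESRP2 at 0.61 (0.26) and RBM10, in 3 libraries, at 0.26 (0.0948). MATR3 shares its locus with another annotated gene of the same symbol, so its counts are uncertain. The 24 DEAD-box helicases tested beside DDX5 and DDX17 had a median of 0.06. At an unadjusted p under 0.05, 6 of them were higher in KD, beside 11.8% of all genes, and none passed after adjustment. The smallest p among the higher ones was that of DDX41 (0.89, adjusted p = 0.194), then DDX27 (0.61, 0.195), and among the lower ones that of DDX20 (-0.54, 0.22), then DDX46 (-0.44, 0.244). The median GC content of the tested genes was 40.6% for the members, 41.3% for SR factors, 41.9% for hnRNPs, 44.9% for the other regulators and 45.7% for the helicases. The GC and length correction in edgeR was also applied to the 22 relatives and class genes given values here, MACROH2A1 and PARP1 included. Of these, 19 moved by more than 1.5 times or changed sign. The class genes were picked by their p before the correction. The share of all genes that moved so far was not computed, so the count does not measure the reach of the correction. TIA1 went to -0.03, SYNCRIP to -0.27, SRRM1 to -0.18, MATR3 to -0.38, DDX20 to -0.05 and DDX41 to 0.53. SRSF7 went up to 0.69. PARP1, the mH2A1.1 partner, was at -0.15 (adjusted p = 0.655).

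The genes of these classes closest in pattern to each member were those with the smallest root mean square difference in centred log2 CPM over the libraries. For QKI these were SRRM1 (0.0522) and SRSF11 (0.0606), and for MBNL2 TIA1 (0.0511) and PTBP2 (0.0646), of 83 genes over 4 libraries. For MBNL1 they were DDX18 (0.0249) and TRA2B (0.0291), and for DDX5 RBM15 (0.04) and DDX10 (0.0432). For DDX17, over 3 libraries and 89 genes, they were DDX46 (0.0188) and KHDRBS1 (0.0195). The values for DDX17 leave out KD replicate 2 and cannot be compared with the others. All are the smallest of many differences over few libraries. The exons of SRRM1, SRSF11, TIA1 and PTBP2 are 41.8%, 37.2%, 35.1% and 34.5% GC. Those of DDX18 and TRA2B are 40.4% and 39.6%, of RBM15 and DDX10 52.5% and 39.7%, and of DDX46 and KHDRBS1 37.4% and 46.8%. The part of base composition or of shared regulation in this likeness was not tested.

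None of the 6 members carried an mH2A1.1 peak at its TSS, taken as 500 bp on each side of the annotated start. Of 12115 genes tested and placed on the genome, 46% had one. This share was 56% in the length class of DDX5 and 43.4% in that of DDX17. It was 36.9% in the class of QKI and MBNL2 and 33.8% in that of MBNL1 and RBFOX2. A wider window of 1000 bp and the starts of all coding transcripts of each gene also gave 0 of 6. QKI (chr6:163414000-163578592, plus strand), MBNL1 (chr3:152243828-152465780, plus), MBNL2 (chr13:97221434-97394120, plus), DDX5 (chr17:64498254-64508199, minus) and RBFOX2 (chr22:35738736-36028824, minus) had no mH2A1.1 peak anywhere between the gene's ends, where 71.4% of the genes tested had at least 1. By length, the share was 78.9% for genes of 100 to 200 kb, the class of QKI and MBNL2, and 83.7% for those of 200 to 400 kb, the class of MBNL1 and RBFOX2. These shares depended on the peak list. With only the 11849 mH2A1.1 peaks that overlap a total mH2A1 peak, 25.7% of the genes had a peak at the TSS and 37.4% anywhere in the gene. The latter was 40.7% in the class of DDX5, 35.1% in that of QKI and MBNL2 and 36.3% in that of MBNL1 and RBFOX2. No member had such a peak.

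The nearest mH2A1.1 peak lay 12802 bp from the TSS of DDX5, 16177 bp from that of RBFOX2, 25000 bp from that of QKI, 45434 bp from that of MBNL2 and 323828 bp from that of MBNL1. DDX17 (chr22:38483438-38507660, minus) was the exception among the members. It held an mH2A1.1 peak of 3000 bp at chr22:38493001-38496000, 11660 bp into the gene, which covered 12.4% of the gene body and was not shared with total mH2A1. A total mH2A1 peak of 9000 bp at chr22:38505001-38514000 covered its TSS, as such peaks did for 18.3% of the genes tested. RBFOX2 had a total mH2A1 peak at chr22:36024001-36027000, which started 1824 bp after the TSS and covered 1.03% of its body. The other members had none within the gene.

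MACROH2A1 (chr5:135334381-135399914, minus) differed from them. Peaks of both lists covered its TSS, and mH2A1.1 peaks covered 22.1% of its body, but none reached the exon pair printed above. Each list comes from 1 library, so no replicate error can be given for the presence of a peak, and all peak scores in the lists are 0.

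**Figure D5:**
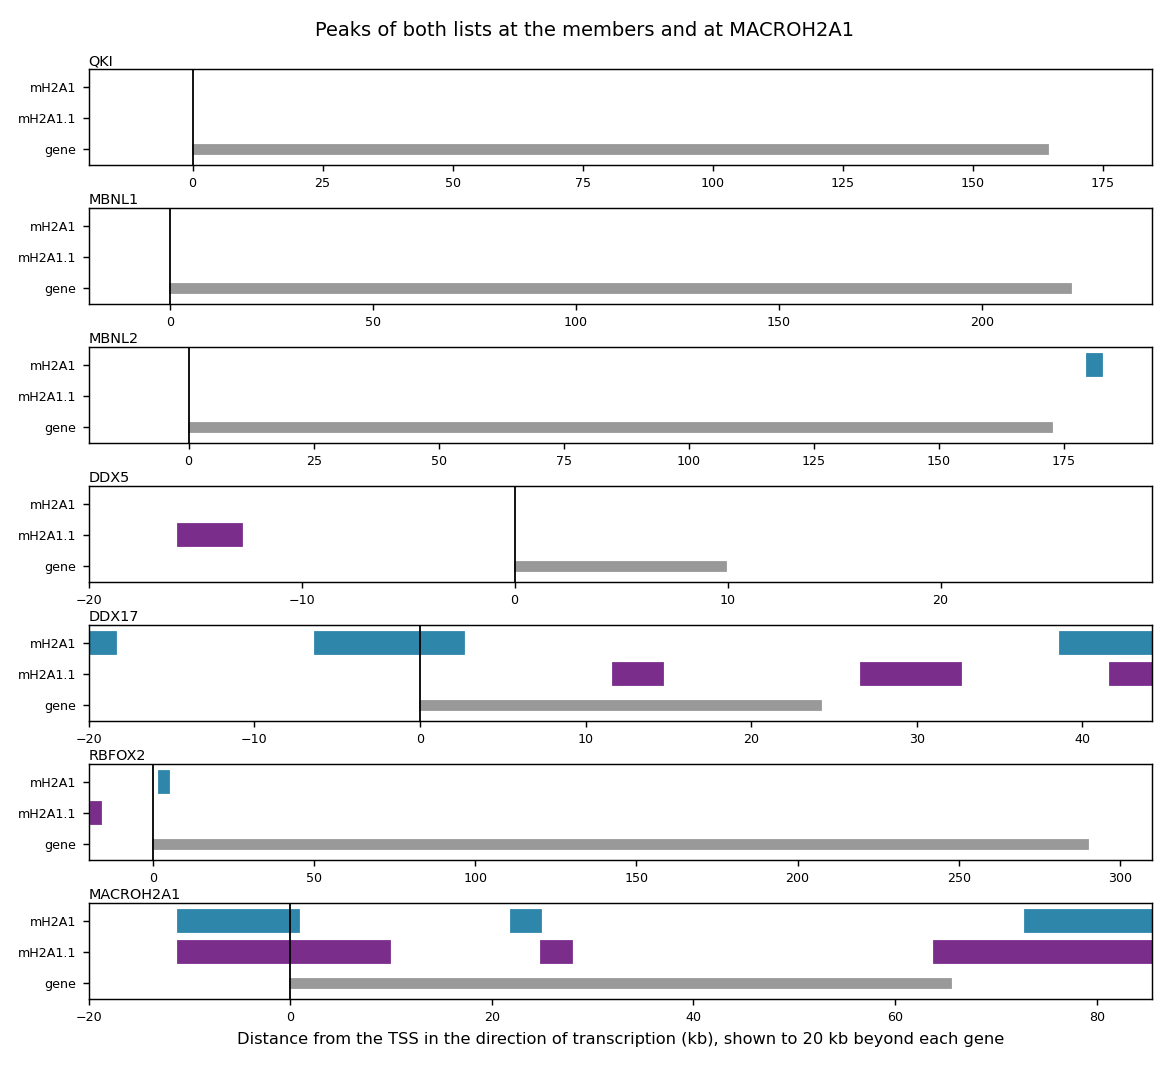
Peaks of mH2A1.1 (purple) and total mH2A1 (blue) at the members and at MACROH2A1, against the distance in kb from the TSS (vertical line) along the gene (grey), shown to 20 kb beyond each end, where longer peaks are cut off by the panel. No purple bar touches the TSS line of a member, and among the members only DDX17 has a purple bar within the gene.

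RefSeq promoter sequences of GRCh38.p14, each of 300 bases, were found for 4 members in 9 entries, and none for QKI and RBFOX2. Over 35116 such promoters the median was 14 CpG dinucleotides and 58.7% GC. Of 2 entries shown, that of DDX17 (chr22:38506262-38506561, minus strand) has 34 CpG and 58.3% GC and lies within the total mH2A1 peak. That of MBNL2 (chr13:97222083-97222382, plus strand) has 5 CpG and 48.3% GC and no peak of either list. Entries of MBNL1 and DDX5 with up to 31 and 30 CpG also lie outside the peaks of both lists. Whether CpG content and peaks go together over the members cannot be told from the DDX17 entry alone. The DDX17 entry is printed as the one within a peak and the MBNL2 entry as one of low CpG content, with CpG in capitals.
DDX17 promoter: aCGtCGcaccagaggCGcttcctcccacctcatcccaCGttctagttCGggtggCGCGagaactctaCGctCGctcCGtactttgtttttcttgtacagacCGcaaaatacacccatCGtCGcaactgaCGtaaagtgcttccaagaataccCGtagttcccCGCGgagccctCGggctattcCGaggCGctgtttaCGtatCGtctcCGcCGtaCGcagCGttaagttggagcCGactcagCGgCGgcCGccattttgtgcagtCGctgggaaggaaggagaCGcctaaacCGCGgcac
MBNL2 promoter: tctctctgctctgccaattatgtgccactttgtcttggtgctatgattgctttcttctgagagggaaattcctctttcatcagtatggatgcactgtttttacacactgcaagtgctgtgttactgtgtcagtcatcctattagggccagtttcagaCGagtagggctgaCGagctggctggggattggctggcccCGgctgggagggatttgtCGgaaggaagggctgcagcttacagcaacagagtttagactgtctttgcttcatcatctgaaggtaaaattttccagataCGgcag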

How the data were processed

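The deposited RNA-seq values were read counts for each gene. The authors aligned reads from a strand-keeping kit to GRCh38 with STAR 2.5.1, dropped duplicates and reads of low mapping quality, and used HTSeq at default settings. The annotation behind the counts is not given in the sources used here. Peaks were called by the authors in 3000 bp bins on single libraries against input, and the deposited peak score is 0 throughout, so no score threshold was used. The input and the 4 PCHiC samples were not used.

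Of 23167 identifiers, 23061 matched GENCODE release 44, and the 106 others held 0.12% to 0.176% of the counts. Counts were tested with edgeR 4.0.16 (R 4.3.3; TMM scaling, its filter on low counts, quasi-likelihood test, Benjamini-Hochberg adjustment) and alternatively DESeq2 1.42.0. Calls required more than 1.5-fold change at an adjusted p below 0.1, the limits of the study. Because KD replicate 2 lacks counts on chromosomes 21, 22 and X, genes there were tested in the other 3 libraries (12135 genes). RPKM are TMM-scaled CPM per kilobase of merged exons. The correction for GC and length subtracted lowess trends (span 0.3) from each library. The test was tested on simulated data with 200 changed genes and a biological coefficient of variation of 0.166. In 4 libraries of 10963 genes edgeR recovered 67% of log2 changes of 1 and 98% of 2, with 21 false calls. Recovery of smaller changes was not tested. The same fit called 0 genes in the measured counts, so these shares are not taken to hold for them.

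The members and gene lists were chosen with earlier results of these data known. Named beside the members were their relatives, MACROH2A1, MACROH2A2 and PARP1, and per list the 2 higher and 2 lower genes of smallest p. Alternatives covered scaling, filter, tool, replicate block, each library left out, GC and length, and definitions of peaks and lengths. Intervals of counts were not used, and depth limits precision most in KD replicate 2.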

Additional observations from a re-analysis of the deposited data

How the results depend on the processing

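In 4 libraries edgeR called 0 genes, but 2139 with no filter, 874 with DESeq2, 909 with the 3 libraries for all genes, 368 with GC and length correction in edgeR, 427 with it in DESeq2 and between 2 and 4744 without 1 library (2 without WT replicate 1, 17 without WT replicate 2, 4744 without KD replicate 1, 909 without KD replicate 2). In 3 libraries the 966 calls became 403 with DESeq2 and 249 with DESeq2 and the GC and length correction. Keeping the 0 values of KD replicate 2, or other scaling factors, also gave 0 calls in 4 libraries.

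QKI (-0.63) and MBNL2 (-0.71) were called with no filter, and MBNL2 (-0.70) with DESeq2. Without 1 library the log2 fold change ranged from -0.77 to -0.48 for QKI, from -0.95 to -0.50 for MBNL2 and from -0.09 to 0.14 for DDX5, which was -0.02 without WT replicate 1. Calls of QKI and MBNL2 were gained without KD replicate 1 and in no other omission. MBNL1 reversed to 0.20 with GC and length correction in edgeR and 0.09 in DESeq2, where the medians of all genes were 0.089 and -0.01.

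Replicate numbers are shared by WT and KD, but the labels do not say that they mark a shared batch, and there are only 2 pairs (correlation of same-numbered deviations 0.433 over 9080 genes). With the replicate block edgeR called 2208 genes, among them QKI (-0.62, adjusted p = 0.0522) and MBNL2 (-0.71, adjusted p = 0.0239), and 943 with the block and the GC and length correction, where MBNL1 was 0.20 and neither QKI nor MBNL2 was called.

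By list, edgeR called 0 in the reported fit. With no filter, where 14.2% of all genes were called, there were 2 among the members, 1 SR factor, 2 hnRNPs, 2 other regulators and 3 helicases. With the block (20.1% of all genes) there were 2, 1, 2, 2 and 4. DESeq2 (11.3%) called 1 each among members, SR factors, hnRNPs and helicases. With GC and length correction 2 helicases were called in edgeR (3.36% of all genes), 1 in DESeq2 (5.5%) and, with the block (8.6%), 3 helicases, 1 SR factor and 2 hnRNPs. Without 1 library the ranges were 0 to 2 members, 0 to 1 relative, 0 to 4 SR factors, 0 to 5 hnRNPs, 0 to 5 other regulators and 0 to 12 helicases, each highest without KD replicate 1, where 41.8% of all genes were called.

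Among single genes, without 1 library SF1 ranged from -0.06 to 0.11 and SRSF9 from -0.04 to 0.61, both lowest without KD replicate 2, and PARP1 from -0.32 to 0.01, highest without KD replicate 1. With GC and length correction (edgeR, DESeq2, and with the block) SF1 was -0.23, -0.30 and -0.23, SRSF11 0.14, 0.02 and 0.12, and DDX46 0.20, 0.09 and 0.20, and PTBP2 was 0.03 in edgeR and 0.04 with the block. The cause of these differences was not tested.

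By the longest coding transcript, WT levels were 19.4 RPKM for QKI, 44.2 for MBNL1, 151 for DDX5 and 69.5 for DDX17. Coverage of the DDX17 body was 0% with shared peaks only and 13.5% from 2000 bp after the TSS. No alternative gave a member an mH2A1.1 peak at its TSS.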
